A study of Mus musculus with 29 samples.

Results

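Axon guidance ligands and receptors were examined in single retinal ganglion cells (RGCs) of the adult mouse. The genes were taken by symbol from the annotation of the array: the semaphorins, plexins, neuropilins, Eph receptors, ephrins, Slits, Robo receptors, netrins, Unc5 receptors and *Dcc*, each read at probe sets that belong to a single gene. This rule took 71 of the 18194 genes with a value, at 156 probe sets. Of these, 68 are guidance genes, and 3 match by their letters only. The latter are the antisense RNA *Plxna4os1*, *Unc50*, a membrane protein of the secretory pathway, and *Unc5cl*, a death domain protein, and none of the 3 reached the detection threshold in any cell. Counts and percentages below are over all 71 genes, which are called the guidance genes for short. The rule itself uses symbols and no measured value, but it was set with earlier results of these data known.

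The 29 cells came from retinas of adult C57BL/6 mice (C57BL/6J in the study's methods), for which no transgene or drug is named, and each was assigned to a functional subtype by its spikes in response to light before its soma was aspirated. Each cell gave 1 amplified cDNA library and 1 Affymetrix mouse genome array. There were 8 direction-selective (DS) cells, of which 4 were ON DS and 4 were ON-OFF DS. There were 2 orientation-selective (OS) cells, 1 ON vOS and 1 ON hOS, and 9 alpha cells, of which 4 were sustained (OFF S alpha), 3 transient (OFF T alpha) and 2 ON alpha. The remaining 10 cells were 2 SbC cells (suppressed by contrast) and 1 cell each labelled LED (local edge detector), PixON, J-RGC, ON S non-alpha, OFF high speed selective, EyeWire 4i, EyeWire 6sn and EyeWire 6sw. Cells are named here by subtype and label number from 1 to 29. The animal of each cell is not named in the sources used here. Cells were therefore not treated as replicates, no test was made between groups of cells, and each comparison is a description by size.

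Guidance genes steer growing axons and lay out neuronal connections. Secreted class 3 semaphorins act on cells that carry neuropilins and plexins, and most membrane-bound semaphorins of classes 4 to 7 bind plexins directly. Ephrins of the A and B groups are membrane ligands of the EphA and EphB receptors, Slits are secreted ligands of Robo receptors, and netrins bind Dcc and Unc5 receptors. In the developing visual system these pathways guide RGC axons out of the eye, across or away from the midline at the optic chiasm, and to their place in the map of the superior colliculus. Semaphorins and plexins also keep neurites within their layers of the inner retina. Many of the genes are known to stay on in mature neurons.

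Signals were MAS5 intensities on a linear scale, scaled so that the 2% trimmed mean was 1500 on every array. A gene was called detected in a cell at a signal of 3000 or more, which is 2 times that mean. For log2 values, signals under 375 were set to 375 (8.55 on the log2 scale), and a signal under this floor has only an upper bound. Signals of different probe sets are not comparable with each other, so that levels are compared between cells for 1 gene at a time. The depth of a library is given by the number of genes detected, which ran from 1182 to 4201 per cell with a median of 2908. The labelled cell type was checked against its markers: the RGC genes *Sncg* and *Uchl1* were detected in 29 of 29 cells, and of 13 RGC marker genes with a value each cell had 5 to 13, with a median of 10. EyeWire 6sw 21 and SbC 26 had 5 each. The summed RGC signal of EyeWire 6sw 21 was 54553, the lowest of all cells against a median of 940935, and beside 9 rod genes it had 6 of 6 cone and 5 of 10 Müller glia genes. SbC 26 had 9 rod genes, the highest summed rod signal, and 4 of 6 cone genes. Neither enters the comparisons between subtypes below, and without EyeWire 6sw 21 the number of genes detected in at least 1 cell was 37 instead of 38. OFF S alpha 18, which does enter these comparisons, had 6 RGC genes at a summed RGC signal of 872805. Beside these it had 9 rod genes and 4 of 6 cone genes. ON S non-alpha 28, outside the comparisons, had 7 RGC genes. Its summed RGC signal, 251532, was the next lowest, and it had 6 of 10 Müller glia and 5 of 6 cone genes. Transcripts of other cell types were thus present. Of pairs of a gene and a cell, 53.1% were detected for rod genes and 28.3% for Müller glia genes, the next highest of these cell types. The Müller glia genes were uneven, however. *Clu* was detected in 27 cells, more than any rod gene, and *Dkk3* in 21. *Glul* and *Rlbp1* were detected in 11 cells each and *Vim* in 10. In contrast, *Slc1a3* and *Aqp4* were detected in 1 cell each, and *Apoe*, *Sox9* and *Kcnj10* in 0. Of 10 rod genes with a value, at least 5 were detected in 18 cells, named rod-rich here, and their summed signal ran from 403 to 6342720 per cell. The rod gene *Gngt1* was detected in 0 cells. Rod-rich were 6 of the 9 alpha cells, 3 of the 8 DS cells, 1 of the 2 OS cells and 8 of the other 10.

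Promoter sequences are shown for 3 of the genes, since the later comparisons turn on them: *Sema3e* and *Sema4f* were higher in DS than in alpha cells and also differed between the OFF alpha subtypes, and *Slit2* was found in most cells of 1 subtype. The windows run from 250 bases before to 50 bases after the RefSeq start of the gene (GRCm38.p6), 5′ to 3′ on the gene's strand. They lie at chr5:14025026-14025325 (plus strand), chr6:82939720-82940019 (minus strand) and chr5:47982905-47983204 (plus strand), respectively. Capitals mark matches to 3 motifs searched on both strands: the GC box (GGGCGG or CCGCCC), the TATA box (TATAAA or TTTATA) and the E-box (CACGTG).
Sema3e: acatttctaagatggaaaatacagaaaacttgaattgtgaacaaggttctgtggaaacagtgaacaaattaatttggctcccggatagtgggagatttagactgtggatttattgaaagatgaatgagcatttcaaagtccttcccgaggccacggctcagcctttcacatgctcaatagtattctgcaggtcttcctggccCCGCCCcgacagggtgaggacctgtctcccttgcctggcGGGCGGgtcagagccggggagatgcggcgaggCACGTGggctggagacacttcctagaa
Sema4f: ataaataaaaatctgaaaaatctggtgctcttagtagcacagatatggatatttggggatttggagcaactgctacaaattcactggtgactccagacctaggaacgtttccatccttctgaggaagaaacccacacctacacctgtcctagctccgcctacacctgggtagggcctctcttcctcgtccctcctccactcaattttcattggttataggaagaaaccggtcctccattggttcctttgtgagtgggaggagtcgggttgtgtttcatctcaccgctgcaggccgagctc
Slit2: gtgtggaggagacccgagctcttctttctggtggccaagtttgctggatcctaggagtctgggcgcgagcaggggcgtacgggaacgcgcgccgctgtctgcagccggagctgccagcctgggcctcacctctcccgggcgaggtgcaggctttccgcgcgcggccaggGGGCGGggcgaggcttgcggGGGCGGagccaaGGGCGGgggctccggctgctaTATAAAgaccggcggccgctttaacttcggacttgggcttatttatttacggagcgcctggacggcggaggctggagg
The *Sema3e* window held 2 GC boxes and 1 E-box, that of *Slit2* held 3 GC boxes and 1 TATA box, and that of *Sema4f* held none of these letters. Of 32851 promoter windows of the same length, 35.7% held a GC box, 13.6% a TATA box and 7.15% this E-box, and the motifs do not overlap one another. GC content was 50.7% with 11 CpG for *Sema3e*, 48.7% with 7 CpG for *Sema4f* and 68.0% with 30 CpG for *Slit2*, against a median of 52.7% and 7 CpG over all windows. No motif was thus found in all 3 windows, and a match is a description of letters, not of a factor's binding.

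Just over 1 in 2 of the guidance genes was seen in at least 1 cell, but few were widespread. Of the 71 genes, 38 (53.5%) were detected in at least 1 of the 29 cells, close to the 55.0% of all genes that were. In at least 10 cells, however, 6 genes (8.45%) were detected, against 18.1% of all genes. Over all pairs of a gene and a cell, 198 of 2059 (9.62%) were detected, against 15.4% over all genes. Another 11 genes were detected in 5 to 9 cells, 13 in 2 to 4 cells and 8 in a single cell, and 33 in none. Signals were mostly far from the threshold: 1720 of the 2059 pairs lay under the floor, and 141 lay between the floor and the threshold.

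**Figure D1:**
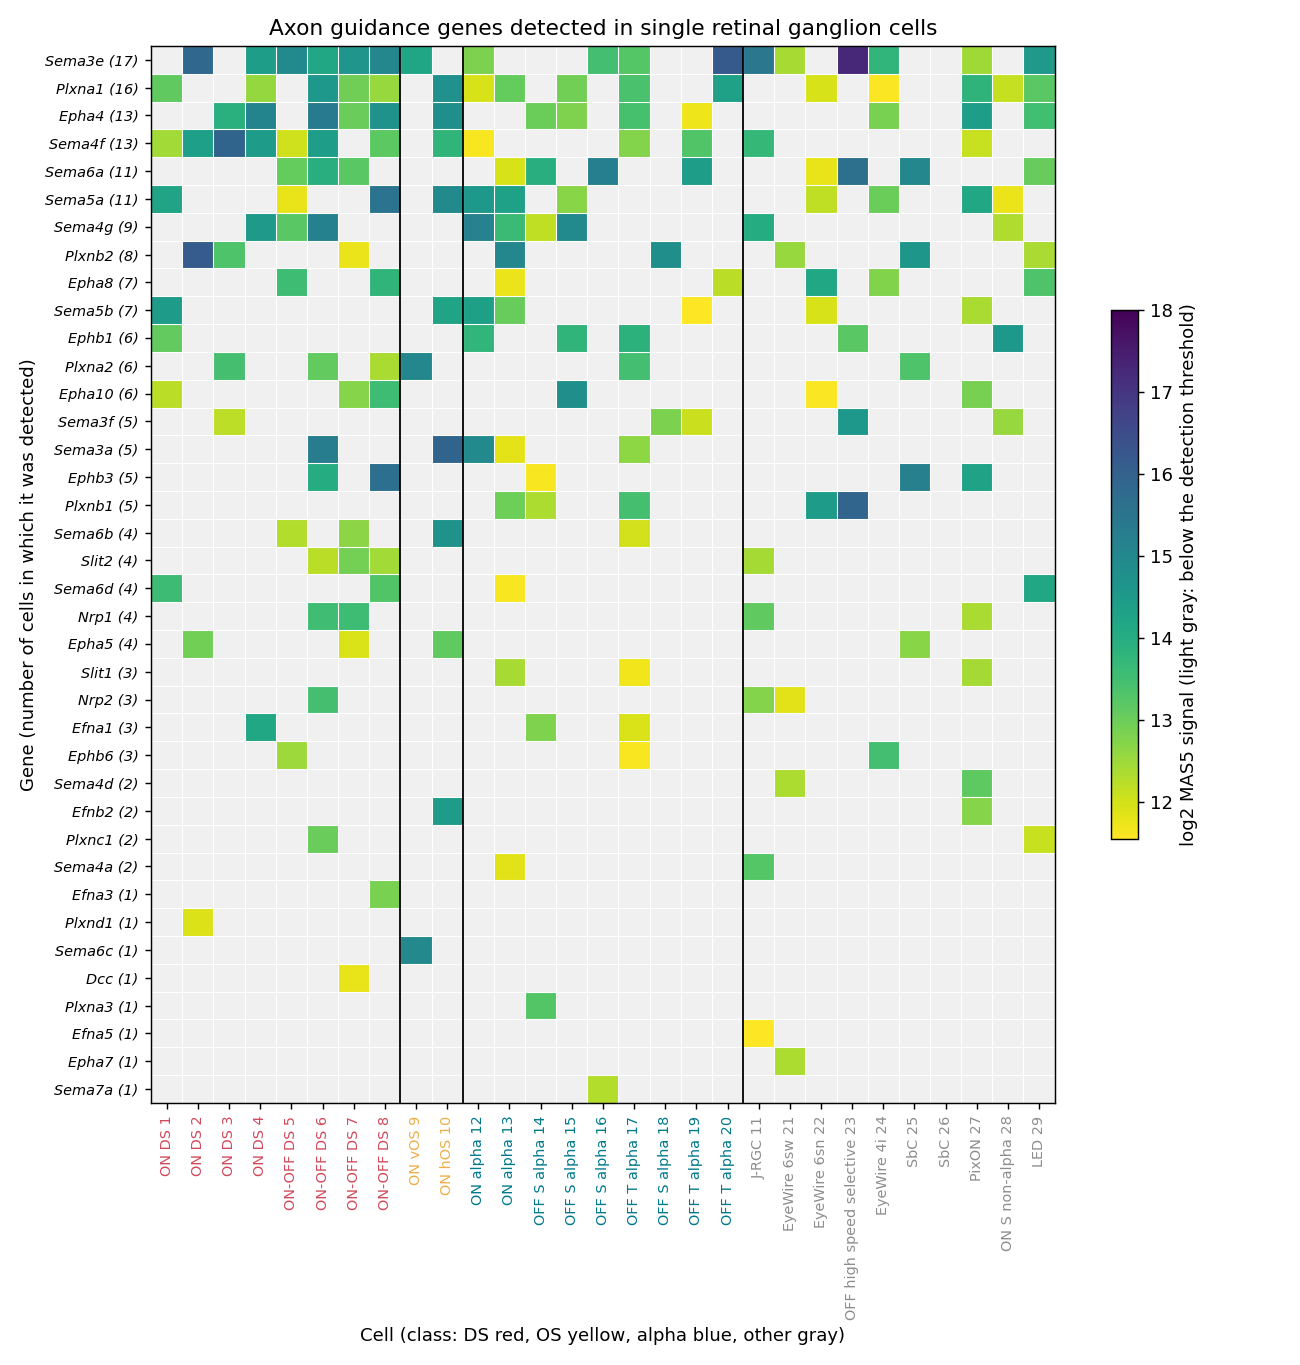
Log2 MAS5 signal of the 38 guidance genes detected in at least 1 cell (rows, with the number of cells in parentheses) in each of the 29 cells (columns, grouped by class). Light gray marks signals below the threshold of 3000. Colors are to be read along a row, since probe sets differ in their response. *Sema3e* was detected in 17 cells and *Plxna1* in 16, whereas SbC 26 had no gene above the threshold.

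The ligands were led by semaphorins. At least 1 of the 7 class 3 semaphorins was detected in 23 cells, and at least 1 of the 13 semaphorins of classes 4 to 7 in 26 cells. Of the class 3 genes, 3 were detected (*Sema3e*, *Sema3f* and *Sema3a*), and of the other classes 11 of 13. *Sema4b* and *Sema4c* stayed below the threshold, with highest signals of 228 and 369. Ephrins were rare. Of 5 ephrin-A genes 3 were detected, in 5 cells in all, and of 3 ephrin-B genes only *Efnb2*, in 2 cells. Slits were detected in 7 cells, as *Slit2* in 4 and *Slit1* in 3, whereas *Slit3* had a highest signal of 397. None of the 4 netrin genes was detected, with highest signals of 272 to 740.

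The receptors were led by plexins and EphA receptors. At least 1 of 9 plexins was detected in 24 cells, at least 1 of 9 EphA receptors in 21 cells and at least 1 of 4 EphB receptors in 13 cells. The neuropilins *Nrp1* and *Nrp2*, the ligand-binding partners of plexins for class 3 semaphorins, were detected in 4 and 3 cells, which made 5 cells with either. *Dcc*, the netrin receptor required for RGC axons to leave the eye, was detected in ON-OFF DS 7, at 3459, just above the threshold. None of the 4 Robo receptors and none of Unc5a to Unc5d was detected. The highest signal was 2834 for *Unc5c*, in OFF high speed selective 23, and 2597 for *Robo1*, in OFF T alpha 17. Of the undetected plexins, *Plxna4* reached 1946, in OFF T alpha 19. In contrast, *Robo2*, the main Slit receptor of developing RGCs, had a highest signal of 168, below the floor, as did 14 of the undetected genes in all. A signal below the threshold bounds what this probe set could show, and does not show that the transcript was absent.

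*Sema3e*, a secreted semaphorin that binds plexin D1, was the most widely detected guidance gene. It was found in 17 cells, which were 6 of the 8 DS cells, 4 of the 9 alpha cells, 1 of the 2 OS cells and 6 of the other 10. In DS cells the signal ran from under the floor to 58912 with a median of 23416, in alpha cells from under the floor to 73760 with a median of 2224, and in the other 10 cells up to 160257 in OFF high speed selective 23. The 4 ON-OFF DS cells had signals of 31121, 18322, 25502 and 33327, an SD of 0.39 on the log2 scale. All 4 lay well above the threshold and within a narrow range, whereas the ON DS cells fell into ON DS 2 at 58912 and ON DS 4 at 21330 on one side and ON DS 1 and 3 under the floor on the other. Of the OFF T alpha cells, cells 20 and 17 passed the threshold, at 73760 and 9775, and OFF T alpha 19 had 2224. Its 4 probe sets did not read alike: the one used here was detected in 17 cells, another in 2 of those cells with a highest signal of 4409, and the remaining pair in none.

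*Sema4f*, a membrane-bound semaphorin, was detected in 13 cells, of which 7 were DS cells. The ON DS cells had 5536, 21099, 62249 and 22439, and the ON-OFF DS cells 4160, 21233, 305 and 9206. ON-OFF DS 7 was thus the single DS cell without it. Among the 9 alpha cells the signal passed the threshold in 3, at 3137 in ON alpha 12, 6880 in OFF T alpha 17 and 10020 in OFF T alpha 19, and the median was 126. All 4 OFF S alpha cells were under the floor. The OS cell ON hOS 10, J-RGC 11 and PixON 27 also had it, at 13986, 13300 and 4337. A second probe set was detected in 9 of the same 13 cells and was likewise highest in ON DS 3, at 53587.

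*Epha4*, a receptor that binds ephrins of both groups, was detected in 13 cells, among them 5 of the 8 DS and 4 of the 9 alpha cells. The DS signals had a median of 11823 and a highest value of 40503, in ON-OFF DS 6. ON-OFF DS 7 and 8 had 8397 and 26894, and ON DS 3 and 4 had 15249 and 34624, while the remaining 3 DS cells were under the floor. In alpha cells the detected signals ran from 3387 to 11110, and the groups overlapped. The other 4 probe sets of *Epha4* were detected in no cell, with highest signals of 419 to 628.

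*Plxna1*, a receptor chain for class 3, 5 and 6 semaphorins, was detected in 16 cells, spread over 5 of the 8 DS cells, 5 of the 9 alpha cells, 1 of the 2 OS cells and 5 of the other 10. The median signal was 6003 in DS and 3956 in alpha cells, and the highest was 27389, in ON hOS 10. Its second probe set reached 660. *Plxna2*, a receptor of Sema6a, was detected in 6 cells and was highest in ON vOS 9, at 32997. At any of its probe sets it was detected in 8 cells. Another probe set had 22500 in EyeWire 4i 24, and a further one 6924 in EyeWire 6sw 21. ON vOS 9 had neither *Plxna1* nor *Epha4* above the threshold, so that the 2 OS cells shared none of these 3 receptors.

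*Sema6a*, a membrane semaphorin known from mouse development both as a ligand in the inner retina and in the targeting of ON DS axons, was detected in 11 cells. ON DS 3 and 4 had 2442 and 2761 and the other 2 ON DS cells were under the floor, so that no ON DS cell passed the threshold at this probe set. At another probe set ON DS 4 had 3098, just above it. ON-OFF DS 5, 6 and 7 had 8566, 15850 and 9390, and ON-OFF DS 8 was under the floor. Of the other cells, OFF high speed selective 23 had 50455, OFF S alpha 16 had 38347, SbC 25 had 32868 and OFF T alpha 19 had 21845. SbC 25 had 4 further guidance genes, *Plxnb2*, *Plxna2*, *Ephb3* and *Epha5*.

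*Sema5a* and *Sema5b*, membrane semaphorins that in the mouse retina act through plexins A1 and A3, were detected in 11 and 7 cells. *Sema5a* was highest in ON-OFF DS 8, at 47669, followed by ON hOS 10 at 30986, ON alpha 12 at 24356 and ON alpha 13 at 20471. Both ON alpha cells were thus high, and of the 7 OFF alpha cells only OFF S alpha 15 passed the threshold, at 6610. The other probe sets of *Sema5a* were detected in no cell, with highest signals of 253, 117 and 201. *Sema5b* was highest in ON DS 1, at 22104, ON alpha 12, at 20572, and ON hOS 10, at 19238. It shared 6 of its 7 cells with *Sema5a*, and the exception was OFF T alpha 19, at 3004. Over the 29 cells their log2 signals had r = 0.66, the highest of all pairs among the 15 most widely detected guidance genes. Depth differed between the libraries and was not held constant, so that this is a description. Next came *Sema5b* with *Sema3a* (r = 0.60, 29 cells) and *Plxna1* with *Sema3a* (r = 0.55), and the lowest was *Sema6a* with *Sema5a* (r = -0.41), which were detected together in 3 cells.

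*Sema4g*, a membrane semaphorin, was detected in 9 cells, with highest signals of 36553 in ON-OFF DS 6, 35957 in ON alpha 12 and 30720 in OFF S alpha 15. *Sema3a*, the ligand that repels axons through neuropilin 1, was detected in 5 cells, with 62025 in ON hOS 10, 40275 in ON-OFF DS 6, 31002 in ON alpha 12, 6429 in OFF T alpha 17 and 3612 in ON alpha 13. None of the 10 cells outside the main classes had it, their highest signal being 1419. *Sema3f*, which acts through neuropilin 2, was detected in 5 cells and was highest in OFF high speed selective 23, at 24296. All 5 cells with *Sema3f* were rod-rich, and 1 of the 5 cells with *Sema3a* was. The part of rod transcripts in this was not tested.

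*Plxnb2*, a receptor of class 4 semaphorins, was detected in 8 cells and was highest in ON DS 2, at 70822, with 32966 in ON alpha 13, 28353 in OFF S alpha 18 and 24701 in SbC 25. Of these 8 cells 7 were rod-rich, whereas ON DS 2, the highest, had 0 of the 10 rod genes. *Epha8* was detected in 7 cells, from 3424 in ON alpha 13 to 18246 in EyeWire 6sn 22. *Epha10*, an Eph receptor without kinase activity, was detected in 6 cells and was highest in OFF S alpha 15, at 28325. *Ephb1*, the receptor that steers uncrossed RGC axons at the chiasm of the mouse, was detected in 6 cells: at 24123 in ON S non-alpha 28, 14747 in OFF T alpha 17, 14014 in OFF S alpha 15, 13716 in ON alpha 12, 9356 in OFF high speed selective 23 and 8745 in ON DS 1. No ON-OFF DS cell had it, their highest signal being 1353. ON S non-alpha 28, the highest cell, also had 6 of 10 Müller glia genes, and the part of other cell types in its *Ephb1* signal was not tested.

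The genes of narrower distribution fell on scattered subtypes. *Ephb3* and *Plxnb1* were detected in 5 cells each. The *Ephb3* signal was highest in ON-OFF DS 8, at 51059. The 5 cells with *Plxnb1*, a receptor of Sema4d, held 3 alpha cells and no DS cell, and the highest signal was 60512, in OFF high speed selective 23. *Sema6b*, *Sema6d*, *Nrp1* and *Epha5* were detected in 4 cells each, with highest signals of 26610, 18111, 12033 and 8918. *Slit1*, *Nrp2*, *Efna1* and *Ephb6* were detected in 3 cells each, with highest signals of 5499, 11207, 18415 and 11404. *Efna1* is a ligand and *Epha5* a receptor of the ephrin-A system that maps RGC axons in the colliculus, and no cell had both. *Sema4d*, *Efnb2*, *Plxnc1* and *Sema4a* were detected in 2 cells each. The 8 genes of a single cell were *Sema6c* in ON vOS 9, at 31993, *Plxna3* in OFF S alpha 14, at 9897, *Efna3* in ON-OFF DS 8, at 7425, *Epha7* in EyeWire 6sw 21, at 5202, *Sema7a* in OFF S alpha 16, at 5031, *Plxnd1* in ON DS 2, at 3803, *Dcc* and *Efna5*, the last in J-RGC 11 at 3047. A gene seen in 1 cell may mark that cell or that library, which cannot be told apart with 1 library per cell.

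The number of guidance genes per cell ranged from 0 to 13 with a median of 6 (SD 3.34, 29 cells). ON-OFF DS 6 had 13: *Sema3e*, *Sema3a*, *Sema4f*, *Sema4g*, *Sema6a* and *Slit2* as ligands, with *Plxna1*, *Plxna2*, *Plxnc1*, *Nrp1*, *Nrp2*, *Epha4* and *Ephb3* as receptors. ON-OFF DS 8, ON alpha 13, OFF T alpha 17 and PixON 27 had 12 each, and ON-OFF DS 7 had 11. At the other end SbC 26, the library with the fewest detected genes, had 0 and OFF S alpha 18 had 2. The number went with the depth of the library, with Pearson r = 0.67 and Spearman rho = 0.66 over the 29 cells. Without SbC 26 and EyeWire 6sw 21, the cells farthest from the median depth, r was 0.72. After quantile normalization, which makes the number of detected probe sets equal in all cells, r was -0.018. EyeWire 6sw 21 had the most detected genes, 4201, but 5 guidance genes. Per 1000 detected genes, the 4 ON-OFF DS cells had 2.58 to 4.37 guidance genes and the 4 ON DS cells 1.76 to 2.79. The highest ratio of all cells was that of ON-OFF DS 8. The rod-rich cells had 0 to 12 guidance genes with a median of 5, and the other 11 cells 3 to 13 with a median of 8, at median depths of 2944.5 and 2748 genes. With the number of rod genes the number of guidance genes had r = -0.33 and rho = -0.36, and the part of rod transcripts in the counts was not tested.

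**Figure D2:**
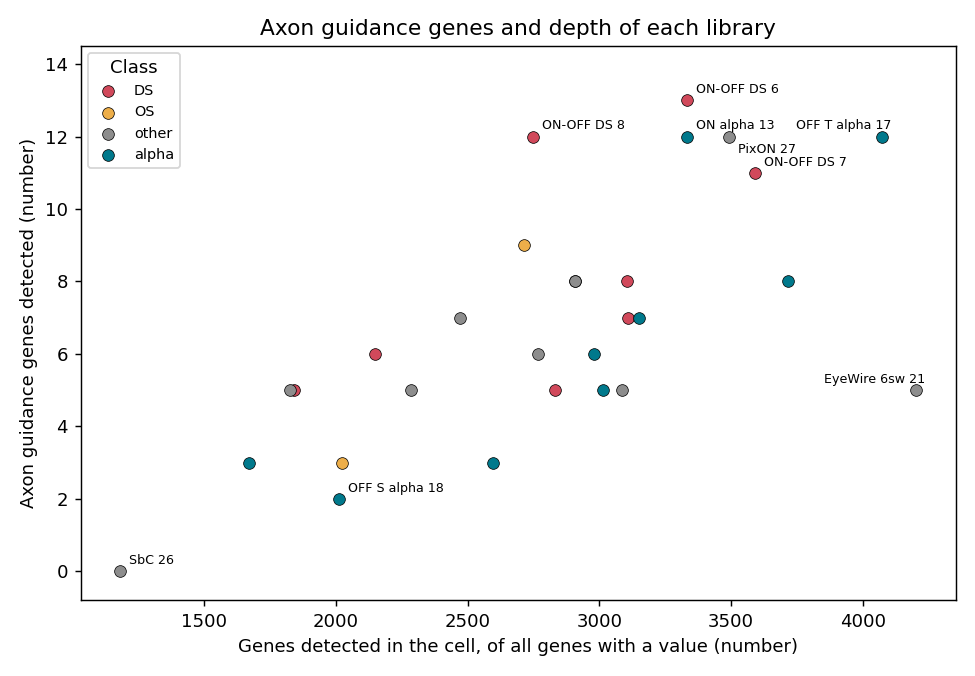
Number of guidance genes detected in each of the 29 cells (vertical axis) against the number of all genes detected in it (horizontal axis), colored by class. The counts climb from 0 in SbC 26 to 13 in ON-OFF DS 6, and EyeWire 6sw 21 lies low for its 4201 detected genes.

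DS and alpha cells were compared first, since the study sought genes that set these broad classes apart. A gene was called higher when the medians of the log2 signals differed by at least 2 (4-fold) and the higher median reached the threshold. In DS cells 3 of the 71 guidance genes were called higher, *Sema4f*, *Epha4* and *Sema3e* (4.23%), against 1.97% of all genes, and 0 were called lower, against 3.53% of all genes. The median difference over the 71 genes was 0, as it was over all genes. This median says little, since 59 of the 71 genes and 13537 of all 18194 genes had a difference of exactly 0. The median log2 signal of *Sema4f* was 13.77 in DS cells (SD 2.25, n = 8) and 8.55, the floor, in alpha cells (SD 2.05, n = 9), a difference of 5.22. That of *Epha4* was 13.47 (SD 3.11) against 8.78 (SD 2.23), a difference of 4.69, and that of *Sema3e* was 14.51 (SD 2.95) against 11.12 (SD 2.70), a difference of 3.39. For all 3 genes the 2 classes overlapped, and for *Sema3e* the SD within each class was nearly the size of the difference. The call of *Sema4f* held without each of the 29 cells in turn and under each of 9 other settings. That of *Sema3e* was lost without the rod-rich cells (difference 1.67, 5 DS and 3 alpha cells), and those of *Epha4* (0.94) and *Sema3e* (0.88) when the probe sets of a gene were averaged. Rod genes moved with the classes: 5 of 10 were called lower in DS cells, and the summed rod signal had a median of 51980 (403 to 1213060) in DS and 630975 (3235 to 3367620) in alpha cells. Of 10 Müller glia genes 2 were also called lower in DS cells, with summed signals of 93936 to 222111 in DS and 104024 to 398991 in alpha cells, and the part of these transcripts in the other calls was not tested. *Sema4g* had its higher median in alpha cells, by 2.45, but that median was below the threshold, and its direction was not settled. It was called lower in DS cells without any of 5 single cells, OFF S alpha 16 or 18 (-3.03) or OFF T alpha 17 (-3.02), 19 or 20 (-3.03), and higher in DS cells without the rod-rich cells (2.19). Without the rod-rich cells *Ephb1* (-5.19) and *Sema3a* (-4.10) were called lower in DS cells.

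Within the DS cells, 5 guidance genes were called higher in ON-OFF DS than in ON DS cells (7.04%), against 5.73% of all genes, and 0 were called lower, against 2.14%. They were *Slit2*, *Sema3e*, *Sema6a*, *Epha4* and *Plxna1*. *Slit2*, the ligand that repels axons through Robo receptors, had signals of 120, 4731, 7611 and 5545 in ON-OFF DS cells, whereas the highest of the ON DS cells was 413, in ON DS 4, so that 3 of 4 were detected against 0 of 4. The groups overlapped through ON-OFF DS 5 alone. The median log2 signals were 12.32 (SD 2.00) and 8.55 (SD 0.07), a difference of 3.77. *Slit2* was also detected in none of the other 15 DS, OS and alpha cells and, outside these, in J-RGC 11 at 5436. This pattern, at least 75% of a subtype and at most 1 other cell of the 19, was met for ON-OFF DS by 43 of all genes, 1 of them a guidance gene. For *Slit2* it depended on the threshold. OFF T alpha 20 had 2516, OFF S alpha 14 had 2120 and PixON 27 had 2496, below the threshold but well above the floor. A threshold under 2120 would count these alpha cells, and *Slit2* would then not meet the pattern. *Sema6a* differed by 3.23 (3 of 4 cells detected against 0 of 4), *Sema3e* by 3.32 (4 of 4 against 2 of 4), *Epha4* by 2.65 (3 of 4 against 2 of 4) and *Plxna1* by 2.19 (3 of 4 against 2 of 4). For *Sema3e*, *Epha4* and *Plxna1* the cells of both subtypes overlapped widely, and for *Sema6a* ON-OFF DS 8 lay with the ON DS cells. *Sema4f* went the other way, with a median 1.81 lower in ON-OFF DS cells, under the size required.

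These calls in groups of 4 cells depended on single cells and on settings. The count of 5 was 2 without ON DS 1 or without ON DS 2, 3 without ON DS 3, 9 without ON-OFF DS 5 or without ON-OFF DS 7, and 7 without ON-OFF DS 6 or without ON-OFF DS 8. Of the 5 genes, *Slit2* stayed called in all of these. Its call was lost with the threshold at 6000, which its median did not reach, with the floor at 1500 (difference 1.77) and with the mean of its 3 probe sets (1.26), of which the other 2 reached 134 and 220. With averaged probe sets the calls of *Plxna1* (1.09), *Sema6a* (1.08), *Sema3e* (0.88) and *Epha4* (0.53) were lost too. *Epha4* (1.65) and *Plxna1* (1.19) lost theirs with the floor at 1500, and *Plxna1* after quantile normalization (1.48). The difference of *Sema3e* fell to 0.40 without ON DS 1 or 3, that of *Sema6a* to 1.88 without ON DS 1 or 2, and that of *Epha4* to -0.02 without ON DS 1 or 2 and to 1.81 without ON-OFF DS 6 or 8. That of *Plxna1* was 0.18 without ON DS 2 or 3 and 1.98 without ON-OFF DS 6 or 7. A call in the other direction appeared for *Plxnb2* without ON DS 1 or 4 and for *Sema4f* without ON-OFF DS 6 or 8. Depth moved with the subtypes: of all pairs of a gene and a cell 17.6% were detected in ON-OFF DS and 13.6% in ON DS cells, and of the guidance pairs 15.5% and 8.10%. Of the rod genes 3 of 10 were called lower in ON-OFF DS cells, with summed signals of 9925 to 557123 against 403 to 1213060. Without the rod-rich cells, which left 3 ON-OFF DS and 2 ON DS cells, 2 of the 5 calls ended, those of *Sema3e* (difference -0.19) and *Plxna1* (1.98). *Slit2*, *Sema6a* and *Epha4* stayed called, and *Ephb3* (5.45), *Plxna2* (3.81) and *Sema5a* (3.20), as well as *Epha8*, were called higher and *Plxnb2* (-3.78) lower. The part of depth was not tested.

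**Figure D3:**
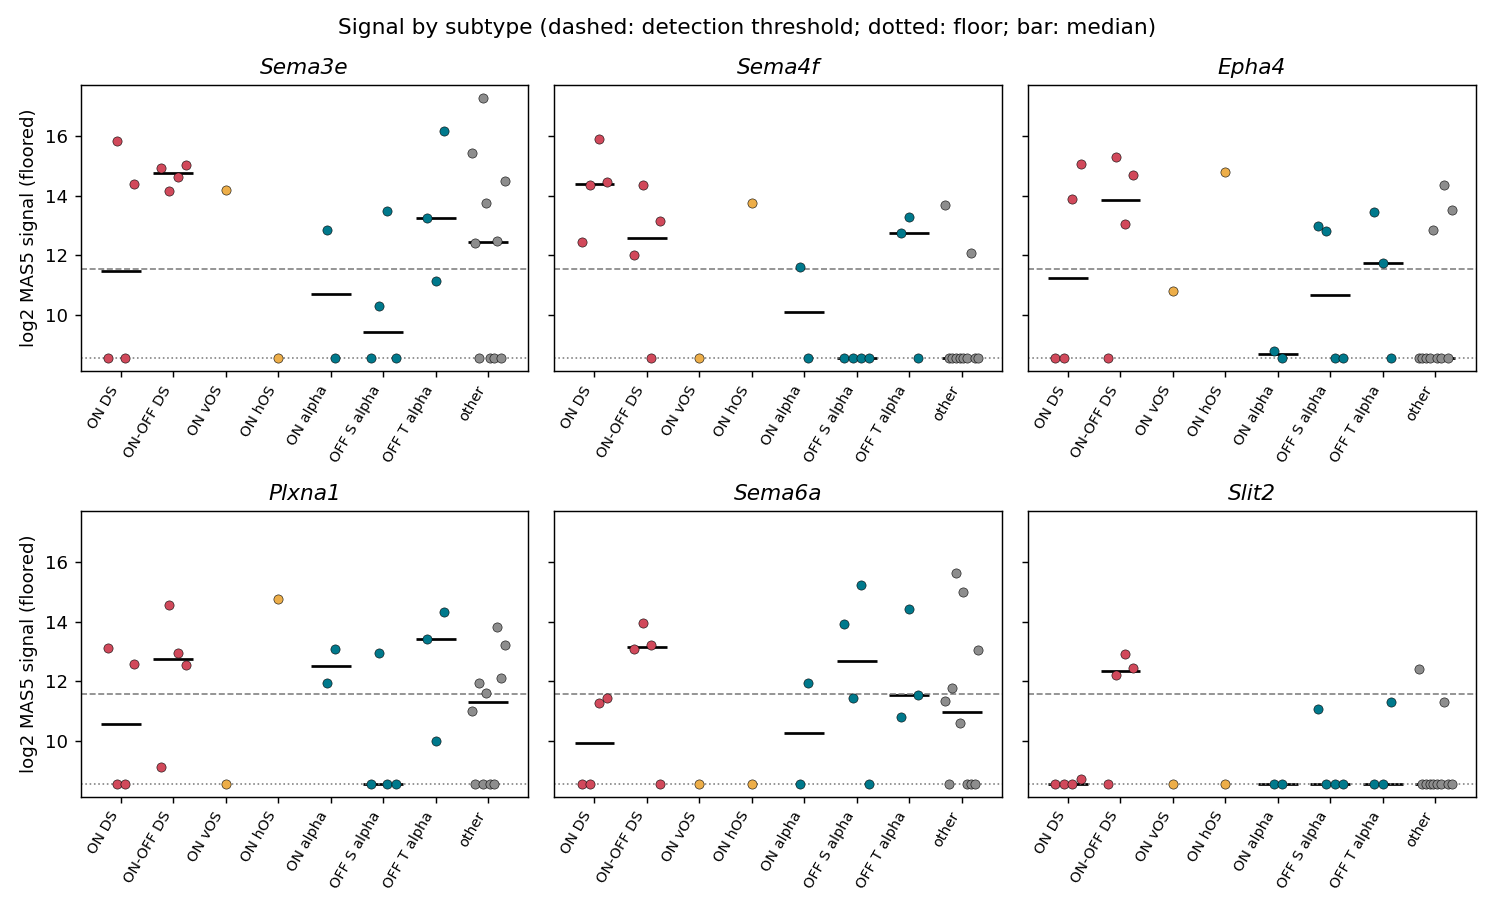
Log2 MAS5 signal, floored at 8.55, of *Sema3e*, *Sema4f*, *Epha4*, *Plxna1*, *Sema6a* and *Slit2* in single cells (points) of each subtype, with the 10 cells outside the main classes pooled as other. Bars are medians, the dashed line is the threshold (11.55) and the dotted line the floor. *Slit2* lies above the threshold in ON-OFF DS cells (3 of 4) and in J-RGC 11.

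Within the OFF alpha cells, 3 guidance genes were called higher in the OFF T than in the OFF S cells (4.23%), against 8.43% of all genes, and 0 lower, against 2.43%. *Plxna1* had 10877, 1024 and 20464 in OFF T alpha cells and 115, 7807, 215 and 156 in OFF S alpha cells, and the median log2 signals of 13.41 (SD 2.28) and 8.55 (SD 2.19) differed by 4.86. *Sema4f* had 6880, 10020 and 126 in OFF T alpha cells and at most 154 in OFF S alpha cells, a difference of 4.20. *Sema3e* had 9775, 2224 and 73760 in OFF T alpha cells, 1245 and 11460 in OFF S alpha 15 and 16, and less than the floor in OFF S alpha 14 and 18, a difference of 3.84. In each gene 2 of 3 OFF T alpha cells were detected, and OFF S alpha 15 for *Plxna1* and OFF S alpha 16 for *Sema3e* overlapped with them. The call of *Sema4f* was lost without OFF T alpha 17 (2.37) or 19 (2.10), since the higher median then fell under the threshold, which left 2 genes. With averaged probe sets *Plxna1* (2.43, with the higher median under the threshold) and *Sema3e* (0.96) lost theirs. *Epha4* joined the called genes without OFF S alpha 14 or 15, which made 4, and *Sema6a* was called lower without OFF S alpha 15 or 18. Depth and rod transcripts moved with these subtypes also. Of all pairs 17.7% were detected in OFF T and 13.5% in OFF S alpha cells, and 8 of 10 rod genes were called lower in OFF T alpha cells, with summed signals of 9211 to 630975 against 232807 to 3367620. Of 6 cone genes 2 were called lower in OFF T alpha cells (summed signals of 399 to 3214 against 265 to 565570), as was 1 of 5 bipolar cell genes, while 1 of 7 amacrine and 1 of 10 Müller glia genes were called higher. All 4 OFF S alpha cells were rod-rich, so that no value without rod-rich cells could be had, and rod content and subtype cannot be told apart here.

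Ligands and their receptors were seen in the same cell for some families and not for others. The number of cells with both depends on how many had each side. It was not compared with the number that independent detection would give. For classes 4 to 7 of the semaphorins, 26 cells had a ligand, 24 had a plexin and 22 had both. For class 3, 23 cells had a ligand and 5 a neuropilin, and all 5 cells with a neuropilin had a ligand as well. Much of this was *Sema3e*, which binds plexin D1: *Sema3a* or *Sema3f*, which act through neuropilins, was detected in 10 cells, and 1 of these, ON-OFF DS 6, had a neuropilin. For ephrin-A and EphA, 5 cells had a ligand, 21 a receptor and 4 both. For ephrin-B and EphB, 2 cells had a ligand, 13 a receptor and 1, PixON 27, both. Slits were detected in 7 cells and Robo receptors in 0, netrins in 0 cells and a netrin receptor in 1. These counts concern transcripts of 1 soma each and say nothing about contact between cells. The lone ephrin-B cell depended on PixON 27, and without it the count was 0.

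**Figure D4:**
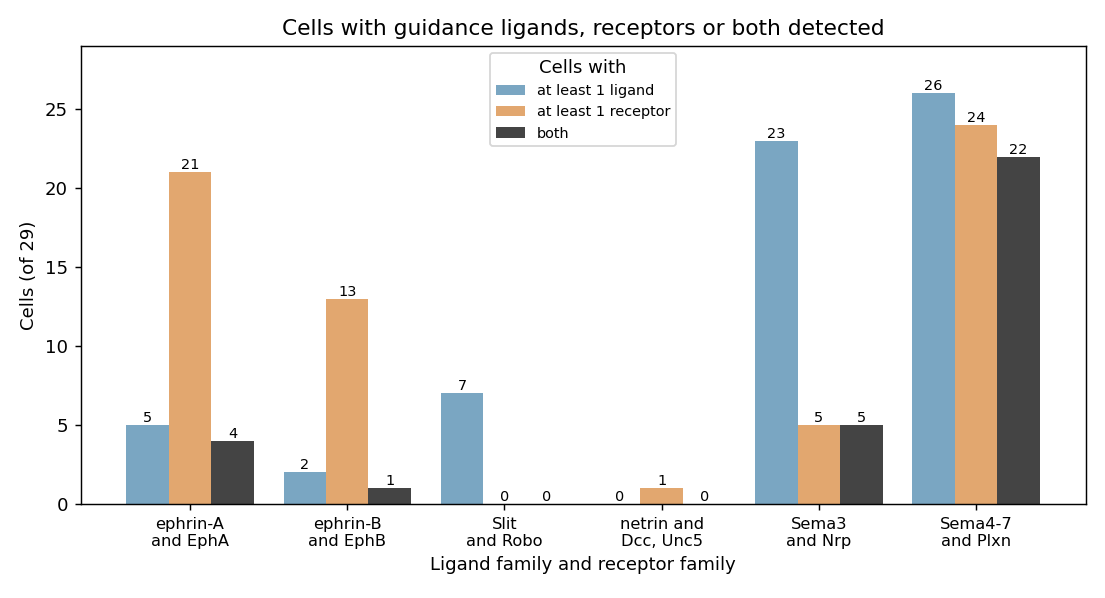
Number of the 29 cells (bars) in which at least 1 ligand, at least 1 receptor or both were detected, for 6 pairs of a ligand family and its receptor family. Cells with both number 22 for the semaphorins of classes 4 to 7 with plexins and 0 for Slits with Robo receptors and for netrins with Dcc or Unc5.

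Single pairs of ligand and receptor, chosen here after their values were seen, gave the following counts. *Sema3e* and *Plxnd1*, its direct receptor, were detected together in ON DS 2, which was the only cell with *Plxnd1*. In contrast, *Sema3e* and *Nrp1* were together in 4 cells, all cells with *Nrp1* at the probe set used. *Sema5a* or *Sema5b* was detected in 12 cells and *Plxna1* or *Plxna3* in 17, with 10 cells in common. *Sema6d* was found with *Plxna1*, its receptor at the chiasm, in all 4 cells that had it, which were ON DS 1, ON-OFF DS 8, ON alpha 13 and LED 29. *Sema6a* was found with *Plxna2* in ON-OFF DS 6 and SbC 25, 2 of its 11 cells. *Sema4d* was found with *Plxnb2* in EyeWire 6sw 21, 1 of its 2 cells. *Efnb2* and *Ephb1*, the pair that acts at the chiasm, were detected together in 0 cells.

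Genes that act with or downstream of the guidance receptors were more widely detected than the guidance genes. Of 22 co-receptors and adhesion molecules with a value, 16 were detected in at least 1 cell and 8 in at least 10 cells, led by *Ncam1* in 25 cells, *L1cam* in 22 and *Cntn1* in 21, which are cell adhesion molecules of axons. Of 24 regulators of small GTPases, 20 and 7 were, led by *Chn1*, a Rac regulator downstream of EphA4, in 24 cells, *Cdc42* in 23 and *Srgap1*, a Robo-binding protein, in 21. Of 28 cytoskeletal effectors, 24 and 12 were, led by *Cfl1*, an actin-severing protein, in 28 cells and *Ablim1* and *Cdk5* in 23 each. Over these lists 25.4%, 29.5% and 35.3% of pairs of a gene and a cell were detected, against 9.62% for the guidance genes and 15.4% over all genes. Of all genes, 55.0% were detected in at least 1 cell and 18.1% in at least 10 cells. In DS against alpha cells 1, 2 and 2 genes of these lists were called higher and 2, 1 and 1 lower. In ON-OFF DS against ON DS cells 4, 2 and 5 were called higher and 0, 1 and 2 lower, and in OFF T against OFF S alpha cells 4, 4 and 6 higher and 1, 0 and 1 lower. Of all genes, 1.97% were called higher and 3.53% lower in DS against alpha cells. These shares were 5.73% and 2.14% in ON-OFF DS against ON DS cells, and 8.43% and 2.43% in OFF T against OFF S alpha cells. The lists were chosen by known function and are of unequal size, so that these are descriptions.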

How the data were processed

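The deposited values were MAS5 intensities that the authors computed for 29 arrays, 1 per RGC, on a linear scale. The version of MAS5 is not given in the sources used. Of 45101 probe sets, 34958 belonged to a single gene of the platform annotation, and those of several genes (932) or none (9211) were left out. Symbols were updated through RefSeq. Where a gene had several probe sets, that of the highest mean log2 signal, floored, was used. The guidance genes, gene lists and pairs were chosen with earlier results of these data known. Values per cell are given for the 15 guidance genes detected in the most cells, for up to 6 called per direction of each comparison, and for those detected in at least 75% of a class or subtype of 3 or more cells and at most 1 other DS, OS or alpha cell. Each sample is a single cell, the animals are not named, and no tests were made. The number of arrays limits the precision. Alternatives were thresholds of 1500 and 6000, no floor (signals under 3 set to 3), a floor of 1500, quantile normalization, any probe set or the mean of all probe sets, leaving out the 1 cell under 50% of the median depth or the 18 rod-rich cells, and leaving out each cell. The procedure was run on signals shuffled between cells, with some genes set far above the threshold in all DS or all alpha cells. This checks the code only, and does not show how often a call arises without a difference. Python 3.11.15, numpy 2.4.6, pandas 2.3.3, scipy 1.17.1 and matplotlib 3.10.9 were used.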

Additional observations from a re-analysis of the deposited data

How the results depend on the processing

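Of the 46 guidance genes with several probe sets, 29 were detected, 14 of them at a single probe set. With the mean of all probe sets, 19 genes were detected in at least 1 cell and 1 in at least 10 cells, r with depth was 0.46, calls were 1 higher in DS, 0 higher and 1 lower (*Sema4f*) in ON-OFF DS, and 1 higher in OFF T alpha cells, and cells with ligand and receptor were 0, 0, 0 and 6 for ephrin-A, ephrin-B, Sema3 and Sema4 to 7. With any probe set *Nrp1* was detected in 5 cells and was called higher in ON-OFF DS than in ON DS cells (difference 5.11). The ephrin-B count was then 2. At the threshold of 1500, calls were 1 lower in DS (*Sema4g*), 10 higher and 1 lower (*Plxnb2*) in ON-OFF DS, with 2 ephrin-B cells and 1 Slit cell. At 6000, 3 genes were detected in at least 10 cells, r was 0.52, and the Sema3 count was 3. With the floor at 1500, 2 genes were higher in ON-OFF DS cells. Quantile normalization turned r to -0.018 and gave 2 genes lower in ON-OFF DS (*Plxnd1* and *Sema4f*), 2 ephrin-B cells, 1 netrin cell and 3 Sema3 cells. The causes were not tested, except that quantile normalization levels the depth by its construction. Without the rod-rich cells, 11 cells were left, and by that 0 genes reached 10 cells. Calls were 3 higher (*Epha4*, *Sema4f* and, turned in direction, *Sema4g*) and 2 lower (*Ephb1* and *Sema3a*) in DS, and 7 higher and 1 lower (*Plxnb2*) in ON-OFF DS, with 0 ephrin-B, 2 Sema3 and 8 Sema4 to 7 cells. Leaving out each cell gave 2 to 9 genes higher and 0 to 1 lower in ON-OFF DS, 0 to 1 lower in DS, 2 to 4 higher and 0 to 1 lower in OFF T alpha cells, r of 0.60 to 0.77, and 0 to 1 ephrin-B cells. Of the detection counts of the named genes under other settings, 83 stayed within 1.5 times and 29 did not. Without the shallowest cell, SbC 26, no count moved by over 1.5 times. No paired analysis was possible because the animal of each cell is not named. The label numbers 1 to 29 are each used once and do not show which cells shared an animal. The 7 groups and measures examined held no cell that stood apart by Dixon's criterion. A gene was examined only where it was detected in all cells of the group. Cells such as ON-OFF DS 5 for *Slit2* or ON-OFF DS 7 for *Sema4f* were therefore not examined.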
